A study of Rattus norvegicus with 6 samples.

Results

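The genes described here are 7 transporters that move bicarbonate, protons or chloride across the cell membrane, namely Slc4a8, Slc4a2, Slc4a3, Slc4a4, Slc4a7 and Slc4a10 of the Slc4 family and Slc12a2 of the Slc12 family. They were found by gene name in the deposited count table, which lists 25689 genes. All 7 were present and all 7 passed the filter on low counts that left 14919 genes for testing. The set was selected on the measured counts themselves: Slc4a8 was chosen by its difference between the groups, a mean 2.07-fold higher after ablation with little spread between samples, and its relatives are described beside it. The differences of all 7 are therefore given without a test.

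RNA was sequenced from L1-L2 dorsal root ganglion (DRG) neurons of the spontaneously hypertensive rat (SHR), an inbred strain that develops high blood pressure. One group of 3 samples came from rats whose perirenal adipose tissue, the fat around the kidney, had been ablated 4 weeks earlier (PRATA), and the other group of 3 samples from rats with a sham operation. Rats of both groups are labelled wild type, and the labels give an age of 6-8 weeks whereas the methods give an older age at purchase. Ganglia were digested with enzymes and their cells cultured on a dish for some hours, so the levels are not those of freshly dissected ganglia. The neurons were enriched by their slower adhesion to the dish, so other ganglion cells may remain. Nothing states whether a sample is 1 animal or a pool, so that the spread between samples may be partly technical.

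Neurons load themselves with acid whenever they fire, and they hold their internal pH with transporters that bring in bicarbonate or push out protons. The sodium-driven members of the Slc4 family, to which Slc4a8, Slc4a4, Slc4a7 and Slc4a10 belong, import bicarbonate and so raise the pH, whereas the anion exchangers Slc4a2 and Slc4a3 trade bicarbonate for chloride and lower it. Slc12a2 (NKCC1) carries sodium, potassium and chloride into the cell, and DRG neurons are known for keeping the high internal chloride that this transporter provides, which is why GABA depolarizes them. Slc4a8 links the pH and chloride sides, since it brings in sodium and bicarbonate in exchange for chloride.

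Levels are given in CPM, counts relative to library size after TMM scaling, and a log2 fold change is always PRATA over sham, with its standard error (SE) from the fit across all genes. CPM depends on transcript length, so levels were compared between samples within a gene and not between genes. Total counts lay between 5892967 and 15226952 per sample, and a floor of 3 counts, which allows for counting error alone, equals 0.207 to 0.468 CPM. All 20 sensory neuron markers of a fixed list were measured, with summed levels of 15835 to 23302 CPM after PRATA and 10811 to 16949 CPM after sham. Markers of satellite glia were present too, with summed levels of 3081 to 5850 CPM after PRATA and 4044 to 8052 CPM after sham. Schwann cell markers summed to 1062 to 1949 CPM after PRATA and 1161 to 1508 CPM after sham. This sum joins markers that went opposite ways, with log2 fold changes from -1.63 (Sox10) to 2.44 (Ncmap). Of the 10 Schwann cell markers, 3 were higher and 1 lower without overlap between the groups, where 11.6% and 11.2% of all genes tested were. Fibroblast markers summed to 484 to 2534 CPM after PRATA and 1377 to 2522 CPM after sham. Macrophage and endothelial markers were measured at lower sums. In such bulk samples, fewer cells of a type and less RNA per cell cannot be told apart. The 7SL RNA gene Rn7sl1 took 5.40% of the counts in PRATA replicate 3 and 5.63% in sham replicate 1, but 1.25% to 1.52% in the remaining 4, so that each group holds 1 library with this excess.

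The promoters of Slc4a8 and Slc4a3 are shown because these 2 genes were the members with higher values after PRATA. They run from 250 bases before to 50 bases after the annotated start in RefSeq, build GRCr8, which may differ from the build behind the counts. The Slc4a8 window lies at chr7:133742580-133742879 on the plus strand and the Slc4a3 window at chr9:84485405-84485704 on the plus strand, and capitals mark matches to CCAAT or GGGCGG on either strand, motifs that do not overlap here.
Slc4a8: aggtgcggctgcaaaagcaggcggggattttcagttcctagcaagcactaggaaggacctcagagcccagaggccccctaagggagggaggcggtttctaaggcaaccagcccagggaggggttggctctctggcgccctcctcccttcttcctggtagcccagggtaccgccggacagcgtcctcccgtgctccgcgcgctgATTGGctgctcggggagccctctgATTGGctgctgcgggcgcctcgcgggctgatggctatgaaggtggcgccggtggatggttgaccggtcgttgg
Slc4a3: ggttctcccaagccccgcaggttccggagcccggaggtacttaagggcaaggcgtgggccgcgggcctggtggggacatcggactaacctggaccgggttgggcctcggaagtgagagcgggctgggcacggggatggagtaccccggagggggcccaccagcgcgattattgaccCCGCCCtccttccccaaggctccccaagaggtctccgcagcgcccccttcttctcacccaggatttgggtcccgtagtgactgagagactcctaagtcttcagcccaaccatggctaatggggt
Slc4a8 held 2 matches to CCAAT, starting at positions 204 and 228 of the window and both on the minus strand, and CCAAT was found in 37.5% of 33469 RefSeq promoter windows of 300 bases. Slc4a3 held none of these but 1 match to GGGCGG at position 177 on the minus strand, which 33.1% of windows held. Neither window contained the E-box CACGTG (in 6.42% of windows), nor the AP-1 motif TGANTCA (in 7.33%), nor the TATA motif TATAAA (in 14.2%) on either strand. These matches describe the letters of the windows alone. Of the other members, Slc4a2, Slc4a4, Slc4a10 and Slc12a2 also had a window in RefSeq, and none of them matched CCAAT, while Slc12a2 matched GGGCGG at 3 positions and Slc4a10 held 1 match each to TGANTCA and TATAAA. The windows of Slc4a8 and Slc4a3 had GC contents of 65.7% and 65.3%, against a median of 51.7% over all windows. Those of Slc4a2, Slc4a4 and Slc12a2 were higher, at 75.0%, 78.0% and 80.7%, and that of Slc4a10 was lower, at 52.3%.

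Slc4a8 (ENSRNOG00000028879), the sodium-driven chloride and bicarbonate exchanger known as NDCBE, was at 33.9, 33.4 and 32.5 CPM in PRATA replicates 1, 2 and 3. In sham replicates 1, 2 and 3 it was at 15.8, 15.1 and 17.4 CPM. Every PRATA sample was therefore above every sham sample, and the lowest PRATA value of 32.5 CPM stood well clear of the highest sham value of 17.4 CPM. These levels rest on 263, 419 and 411 counts after PRATA and 229, 97 and 184 counts after sham. The group means were 33.3 ± 0.730 CPM (SD, n = 3) and 16.1 ± 1.15 CPM (SD, n = 3), a log2 fold change of 1.04 (SE 0.16). The coefficient of variation was 2.19% after PRATA and 7.13% after sham. Little spread was part of the choice of this gene, and at these counts counting error alone can be as large. The closeness of the 3 PRATA values is therefore no measure of how alike the samples were. Only 1.64% of the 14919 genes tested had a log2 fold change as high as that of Slc4a8, and 0.737% had one as high with groups that did not overlap, which describes the choice of this gene and is no test of it.

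**Figure D1:**
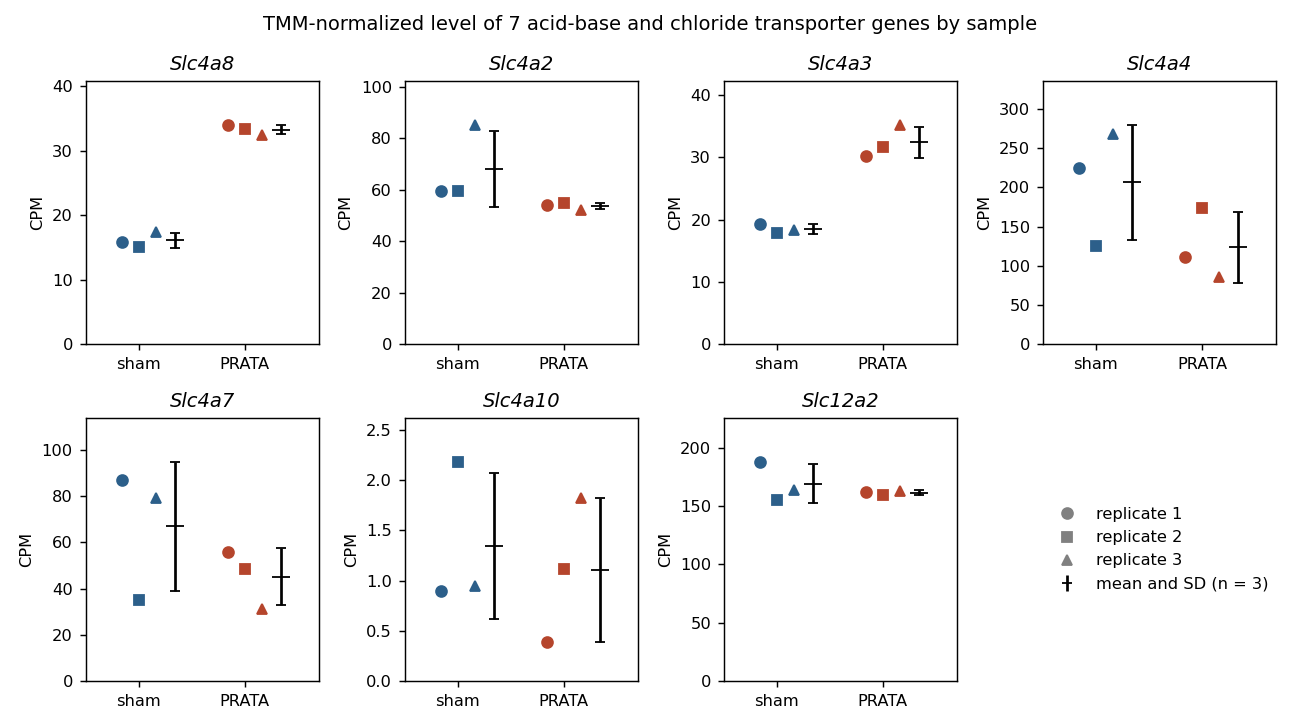
Each panel plots one gene, with TMM-normalized CPM on the vertical axis, the sham and PRATA groups on the horizontal axis, 1 point per sample and black marks for mean and SD (n = 3). The PRATA points of Slc4a8 lie between 32.5 and 33.9 CPM and the sham points between 15.1 and 17.4 CPM, and Slc4a3 shows the same separation, while Slc4a4, Slc4a7, Slc4a10 and Slc12a2 overlap between the groups.

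Slc4a3 (ENSRNOG00000020138), the anion exchanger AE3 of neurons and heart, which exports bicarbonate in exchange for chloride, was the other member with higher values after PRATA. It was at 30.2, 31.7 and 35.2 CPM in PRATA replicates 1, 2 and 3 and at 19.3, 17.8 and 18.3 CPM in sham replicates 1, 2 and 3. The groups did not overlap, and the sham samples lay close together. They rest on 280, 114 and 194 counts, where counting error alone can be as large, so this closeness is no measure of how alike the samples were. Its means were 32.4 ± 2.56 CPM (SD, n = 3) and 18.5 ± 0.789 CPM (SD, n = 3), a log2 fold change of 0.81 (SE 0.16). Thus an acid-extruding and an acid-loading transporter of the same family both had higher values after PRATA.

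Slc4a2 (ENSRNOG00000014347), the widely expressed anion exchanger AE2, went the other way. PRATA replicates 1, 2 and 3 held 54.1, 54.7 and 52.3 CPM, against 59.5, 59.5 and 85.1 CPM in sham replicates 1, 2 and 3. The PRATA samples were all lower, but sham replicate 3 stood apart from the other sham samples, which were close to the PRATA range. The means were 53.7 ± 1.25 CPM (SD, n = 3) and 68.0 ± 14.8 CPM (SD, n = 3), and the log2 fold change was -0.34 (SE 0.19), or -0.14 without sham replicate 3. Of the 7 members, 2 had a log2 fold change above 0, as had 52.0% of all genes tested. By the samples themselves, 2 members were higher and 1 lower without overlap between the groups, where 11.6% and 11.2% of all genes tested were. Since the set was selected on this contrast, nothing is read from these counts.

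The electrogenic sodium bicarbonate cotransporter Slc4a4 (ENSRNOG00000003134), known as NBCe1 and abundant in glia, varied widely within both groups. It was at 111, 174 and 85.3 CPM in PRATA replicates 1, 2 and 3 and at 225, 125 and 268 CPM in sham replicates 1, 2 and 3. The groups overlapped, since PRATA replicate 2 exceeded sham replicate 2. The PRATA mean was 123 ± 45.7 CPM (SD, n = 3) and the sham mean 206 ± 73.4 CPM (SD, n = 3), a log2 fold change of -0.74 (SE 0.34). The 6 samples stood in the same order for Slc4a4 as for the summed satellite glia markers, which were 8052 and 7019 CPM in sham replicates 3 and 1, 5850 CPM in PRATA replicate 2, 4044 CPM in sham replicate 2, and 3648 and 3081 CPM in PRATA replicates 1 and 3. This likeness was noticed after the values were seen, the sum is mostly Apoe, and by the mean log2 CPM of the list sham replicates 1 (6.91) and 3 (6.85) change places. The part of satellite glia in the Slc4a4 values was not tested. All 8 satellite glia markers were lower after PRATA on average, with log2 fold changes from -1.01 to -0.24 and overlapping groups for each.

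Slc4a7 (ENSRNOG00000005957), the electroneutral sodium bicarbonate cotransporter NBCn1, was at 55.6, 48.7 and 31.3 CPM in PRATA replicates 1, 2 and 3. In sham replicates 1, 2 and 3 it was at 87.0, 35.1 and 79.1 CPM. Sham replicate 2 fell inside the PRATA range, so the groups overlapped. The log2 fold change was -0.57 (SE 0.35), and among the 4 samples without the Rn7sl1 excess it was -0.15.

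Slc4a10 (ENSRNOG00000005307), the electroneutral relative NBCn2 that is prominent in the brain, was close to the floor of these libraries. It was covered by 3, 14 and 23 counts in PRATA replicates 1, 2 and 3 and by 13, 14 and 10 counts in sham replicates 1, 2 and 3. These are levels of 0.387, 1.12 and 1.82 CPM after PRATA and 0.898, 2.19 and 0.945 CPM after sham, which overlapped throughout. At this depth no difference was detectable, with a log2 fold change of -0.18 (SE 0.65) that turned positive without PRATA replicate 1 (0.15) and without sham replicate 2 (0.31).

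Slc12a2 (ENSRNOG00000015971), the chloride-loading cotransporter NKCC1, held nearly the same level in both groups. It was at 162, 159 and 163 CPM in PRATA replicates 1, 2 and 3 and at 188, 155 and 164 CPM in sham replicates 1, 2 and 3. The PRATA samples lay inside the sham range. Means were 161 ± 2.12 CPM (SD, n = 3) and 169 ± 16.9 CPM (SD, n = 3), a log2 fold change of -0.07 (SE 0.16).

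Since all 20 sensory neuron markers had positive log2 fold changes, from 0.09 to 0.81 with a median of 0.45, the members were also set against these markers. Of all genes tested, 52.0% had a log2 fold change above 0. Only 6 of the 20 markers were higher without overlap between the groups, where 11.6% of all genes tested were, and the rest overlapped. The mean log2 CPM of the marker list was 0.51 higher after PRATA, though sham replicate 2 at 8.80 exceeded PRATA replicate 2 at 8.72. After each sample's neuron marker mean was subtracted, Slc4a8 was 0.53 higher after PRATA on the log2 scale, with PRATA values of -4.05 to -3.65 above sham values of -4.86 to -4.14. The gap between the nearest samples was small on that scale, as the lowest PRATA value of -4.05 came just above the highest sham value of -4.14. For Slc4a3 the difference became 0.29 and the groups overlapped. Slc4a2 became 0.83 lower after PRATA without overlap, but the nearest samples almost met, at -2.94 for PRATA and -2.90 for sham. Slc12a2 became 0.57 lower with overlapping groups. The subtraction lowers every member's difference by the same 0.51, so it leaves their order by size as it was, and the part of neuron content in these differences was not tested.

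**Figure D2:**
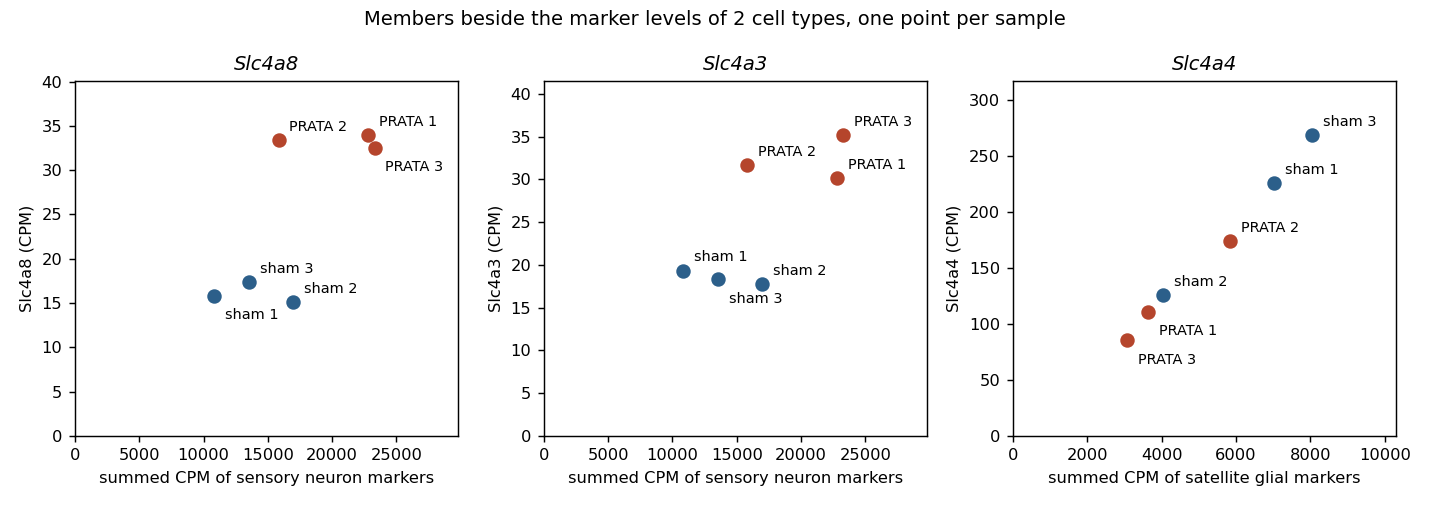
The level of Slc4a8, Slc4a3 and Slc4a4 (vertical axis, CPM) is plotted against the summed level of sensory neuron or satellite glia markers (horizontal axis, CPM), with 1 labelled point per sample, PRATA in red and sham in blue. The neuron marker sums run from 15835 to 23302 CPM after PRATA and from 10811 to 16949 CPM after sham, and the 6 Slc4a4 points stand in the same order on both axes.

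Among the 4 samples outside the Rn7sl1 split, 2 per group, the log2 fold change was 1.04 for Slc4a8 and 0.77 for Slc4a3, close to the values over all samples. It was -0.42 for Slc4a2, -0.48 for Slc4a4 and -0.94 for Slc4a10. The other pair holds 1 sample of each group and gives no spread.

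Among RefSeq genes whose symbol is also in the count table, Slc4a8 lies between Galnt6 and Scn8a on the chromosome. Annotated genes without such a match were passed over. Galnt6 encodes an enzyme of mucin-type glycosylation, and Scn8a encodes the sodium channel Nav1.6. Galnt6 was at 26.7, 27.5 and 33.4 CPM after PRATA and 12.9, 25.6 and 19.5 CPM after sham, a log2 fold change of 0.61 (SE 0.26, adjusted p = 0.269, edgeR). Scn8a was at 149, 61.8 and 137 CPM after PRATA and 66.1, 83.2 and 66.9 CPM after sham, a log2 fold change of 0.68 (SE 0.31, adjusted p = 0.292, edgeR), and its groups overlapped. The groups of Galnt6 did not overlap, as for 11.6% of all genes tested that were higher without overlap. Its unadjusted p was 0.048 (edgeR), where 8.19% of all genes tested were higher at under 0.05. Neither neighbour passed after adjustment, but no gene tested did in this fit, so this tells nothing about the neighbours.

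The genes whose log2 CPM over the 6 samples was most like that of Slc4a8 were sought among 10435 genes with a symbol and a mean of at least 5 CPM. They were Ppp1r37 (Pearson r = 0.996), Ano8 (r = 0.992), Arhgef18 (r = 0.992), Tuba1a (r = 0.988) and Pou4f1 (r = 0.987), and 265 genes had an r over 0.9. These values describe 6 points that fall into 2 groups, and all genes share the same libraries. Ano8, an anoctamin, was at 40.0, 35.6 and 36.8 CPM after PRATA and 19.3, 18.9 and 22.8 CPM after sham. Pou4f1, a transcription factor of sensory neurons, was at 48.5, 47.6 and 48.4 CPM after PRATA and 20.9, 24.0 and 26.5 CPM after sham, so its groups were also well apart. Ppp1r37 differed much less in size, with 52.8, 53.8 and 53.2 CPM after PRATA and 43.5, 42.1 and 44.4 CPM after sham.

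To place the members among the other genes of pH and chloride handling, 90 companion genes in 8 lists were examined, all of which were found in the table and 65 of which passed the filter. Tested in edgeR (quasi-likelihood, p adjusted by Benjamini-Hochberg over all genes), 0 of the 65 had an adjusted p under 0.05, as did 0.0% of all genes tested. At an unadjusted p under 0.05, 7 were higher and 3 lower after PRATA, where 8.19% and 10.1% of all genes tested were. DESeq2 gave an adjusted p for 41 of them, of which 3 were under 0.05, as were 7.26% of the 10250 genes for which it gave one. With limma voom and sample quality weights, 2 of the 65 were under 0.05, as were 7.86% of all genes tested. The median log2 fold change of the 65 genes was 0.17, beside 0.02 for all genes tested.

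Of the other Slc4 genes, Slc4a5 and Slc4a9 were too low to be tested, and Slc4a11 had a log2 fold change of 0.31 (SE 0.28, adjusted p = 0.586, edgeR). Slc12a5, the neuronal potassium-chloride exporter KCC2, is named for its role and after its values were seen. It lay between 0.312 and 1.29 CPM in all samples and did not pass the filter.

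Of the sodium-proton exchangers of the Slc9 family, which extrude acid from the cell or from organelles, 2 of 8 tested were higher and 0 lower at an unadjusted p under 0.05. Of all genes tested, 8.19% were higher and 10.1% lower at that threshold, and with lists this small nothing is read by family. Slc9a5 was at 5.29, 3.82 and 4.59 CPM after PRATA and 2.49, 1.56 and 2.27 CPM after sham, a log2 fold change of 1.09 (SE 0.34, adjusted p = 0.188, edgeR). Slc9a7, which acts in the Golgi, had a log2 fold change of 0.60 (SE 0.21, adjusted p = 0.216, edgeR). Of the Slc26 anion exchangers, 0 of 7 tested were higher and 2 lower. Slc26a2, a sulfate transporter, was at 5.16, 8.29 and 6.33 CPM after PRATA and 15.3, 10.6 and 19.1 CPM after sham, a log2 fold change of -1.18 (SE 0.29, adjusted p = 0.158, edgeR). Its adjusted p lay between 0.0176 and 0.550 over 13 alternatives, passing under 0.05 with DESeq2, with voom and without sham replicate 2. Slc26a7 had a log2 fold change of -1.20 (SE 0.45, adjusted p = 0.230, edgeR).

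Carbonic anhydrases supply these transporters by interconverting carbon dioxide and bicarbonate, and 9 of 16 were too low to be tested. Of the 7 tested, 1 was higher and 0 lower at an unadjusted p under 0.05, where 8.19% and 10.1% of all genes tested were. It was Car9, a membrane form that faces the outside of the cell, which was covered by 8, 12 and 16 counts after PRATA and 5, 2 and 1 counts after sham, a log2 fold change of 2.06 (SE 0.63, adjusted p = 0.182, edgeR) on few counts. Of the monocarboxylate transporters, which carry lactate with a proton, and their partners, 1 of 5 tested was higher, namely Slc16a3 at 2.07, 4.54 and 5.54 CPM after PRATA and 1.87, 1.87 and 1.23 CPM after sham, a log2 fold change of 1.30 (SE 0.46, adjusted p = 0.216, edgeR).

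Of the chloride channels, 0 of 15 tested were higher and 1 lower at an unadjusted p under 0.05. Among all genes tested, 8.19% were higher and 10.1% lower. Best1, a calcium-activated chloride channel, was at 149, 190 and 307 CPM after PRATA and 454, 341 and 440.0 CPM after sham, a log2 fold change of -0.93 (SE 0.29, adjusted p = 0.185, edgeR). Its adjusted p lay between 0.0250 and 0.551 over 13 alternatives, and passed under 0.05 with DESeq2 and with voom. Of the kinases and binding partners, 2 of 17 were higher and 0 lower. Chp2, a calcium-binding partner of sodium-proton exchangers, was at 62.5, 32.6 and 72.8 CPM after PRATA and 27.8, 29.2 and 25.0 CPM after sham, a log2 fold change of 1.03 (SE 0.29, adjusted p = 0.171, edgeR). Its adjusted p lay between 0.0269 and 0.550 over 13 alternatives and passed under 0.05 with DESeq2. Wnk2 had a log2 fold change of 0.42 (SE 0.17, adjusted p = 0.250, edgeR). Stk39 and Oxsr1, the kinases that switch NKCC1 on and are named for that role after their values were seen, had log2 fold changes of 0.18 (SE 0.19) and -0.05 (SE 0.16), and both overlapped between the groups as Slc12a2 itself did.

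**Figure D3:**
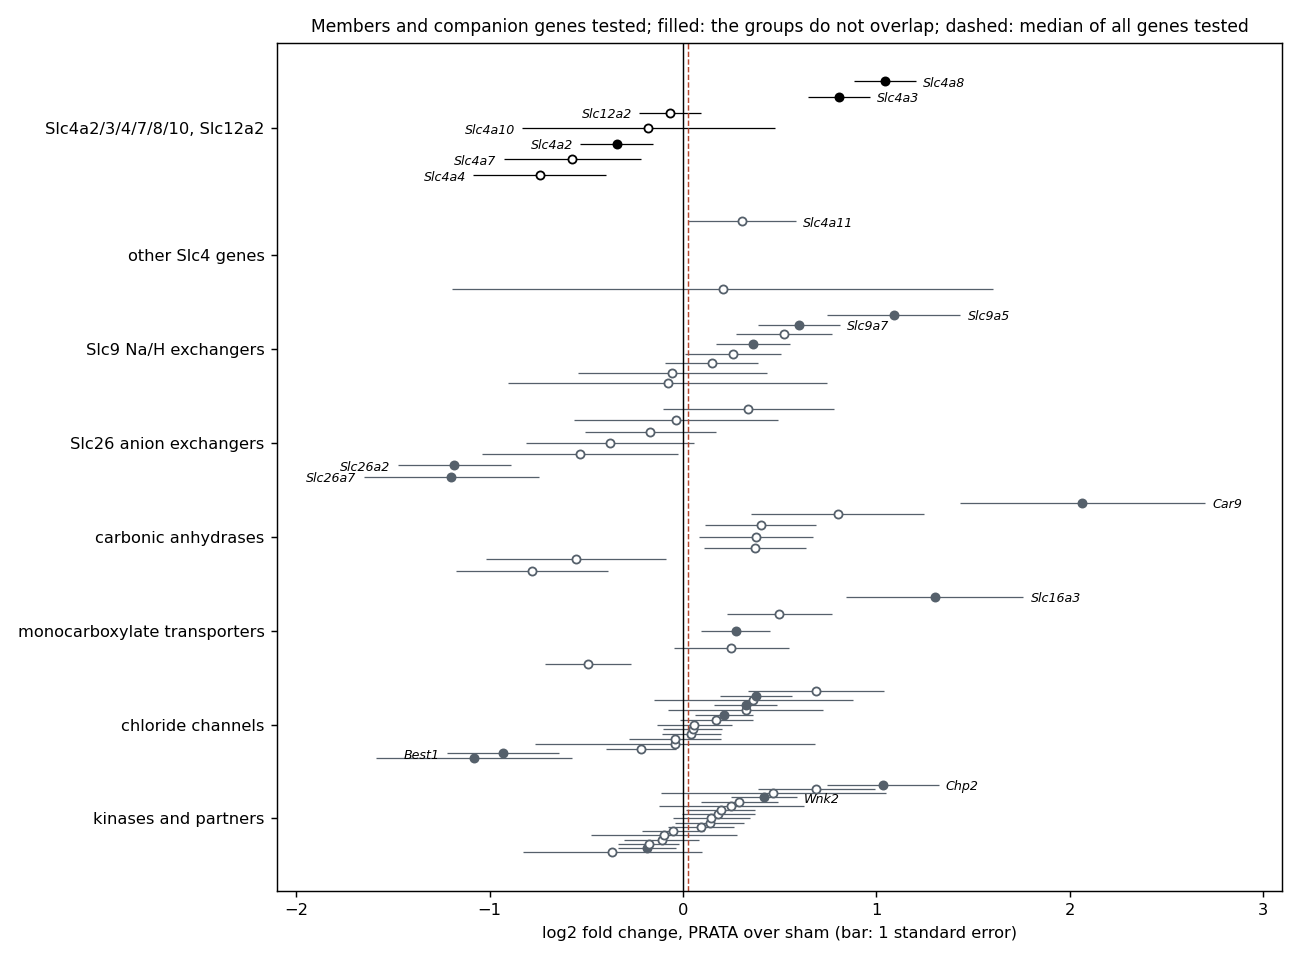
The log2 fold change of each tested gene (horizontal axis, PRATA over sham, bar for 1 SE) is drawn by gene list (vertical axis; the other Slc12 genes are not drawn), filled where the groups do not overlap, with the median of all genes as a dashed line at 0.02. Slc4a8 at 1.04, chosen for its fold and its little spread, and Slc4a3 at 0.81 were the members higher after PRATA. Car9 at 2.06 and Slc16a3 at 1.30 carry wider SEs and rest on fewer counts, so the sizes of the SEs are not compared.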

How the data were processed

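RNA of L1-L2 DRG neurons was sequenced in 3 PRATA and 3 sham samples, grouped by their labels. The deposited values are raw counts per gene and sample, whole numbers without normalization, made by the authors. The methods describe mapping with HISAT2, assembly with StringTie and FPKM values from Cuffdiff, whereas the submitters' processing notes list STAR 2.7.3a, RSEM and DESeq2. Which of these made the counts, the strand setting, the treatment of multimapping reads, the build and the annotation are not given in the sources used here, so reads shared between related genes or overlapping genes may be split in an unknown way.

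The main test was that of edgeR 4.0.16 in R 4.3.3 (filterByExpr keeping min.count at 10 and min.total.count at 15, TMM, quasi-likelihood test, two-sided, Benjamini-Hochberg adjustment over 14919 genes), limma 3.58.1 and DESeq2 1.42.0, with plots from matplotlib 3.10.9 under Python 3.11.15. The SE is the log2 fold change divided by the square root of the F statistic. Log2 CPM used a prior count of 2. Total counts of 5892967 to 15226952 per sample set the precision. No column of sample values was left unused. The fits were tested on simulated data.

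The members and lists were chosen with earlier results of these data known. Named are all members, in each companion list up to 5 genes with non-overlapping groups and an unadjusted p under 0.05 (otherwise the gene with the highest mean), the 5 genes most like Slc4a8 and its neighbours. A companion gene that this rule names is not reported here. Companion symbols matched by name, 11 of 90 through a RefSeq synonym, and of 66 markers 64 matched. Promoter windows were taken from RefSeq, build GRCr8. Alternatives were other scaling, no filter, DESeq2, voom, the replicate block, samples left out, and subtraction of the neuron marker mean. With 3 samples against 3, an exact permutation test cannot give a p under 0.10, and none was run.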

Additional observations from a re-analysis of the deposited data

How the results depend on the processing

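For each member, the value under the alternatives stayed within the spread between replicates, except when the neuron marker mean was subtracted, which gave 0.53 for Slc4a8, -0.83 for Slc4a2, 0.29 for Slc4a3 and -0.57 for Slc12a2 on the log2 scale. The same subtraction gave -1.25 for Slc4a4, -1.01 for Slc4a7 and -0.83 for Slc4a10. These 3 shifted by as much and stayed within the spread only because their replicates varied more. With each sample left out, Slc4a8 lay between 1.01 and 1.11, Slc4a3 between 0.74 and 0.83, Slc4a2 between -0.45 and -0.14, Slc4a4 between -1.07 and -0.50, Slc4a7 between -0.88 and -0.37, Slc4a10 between -0.73 and 0.31 and Slc12a2 between -0.12 and -0.0046. Among these, Slc4a10 changed sign without PRATA replicate 1 (0.15) and without sham replicate 2 (0.31), and in the 4 samples outside the Rn7sl1 split Slc12a2 came to 0.00012. With the replicate number as a block, Slc4a8 was at 1.05, Slc4a3 at 0.81, Slc4a2 at -0.32, Slc4a4 at -0.75, Slc4a7 at -0.51, Slc4a10 at -0.34 and Slc12a2 at -0.06, while same-numbered samples share only a number, since their deviations from the group means correlated across genes with r of -0.35, -0.05 and -0.35.

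Among the companion genes, the count at an adjusted p under 0.05 was 0 in edgeR, 3 with DESeq2 and 2 with voom, and between 0 and 2 with each sample left out, the 2 arising without sham replicate 2. At an unadjusted p under 0.05, 7 were higher, against 12 with voom, 3 with the replicate block, 4 in the 4 samples outside the Rn7sl1 split and between 3 (without PRATA replicate 3 or sham replicate 3; 4 without PRATA replicate 1) and 11 (without sham replicate 2) with each sample left out, and 3 were lower, against 5 with voom and between 2 (without PRATA replicate 1 or 3) and 6 (without PRATA replicate 2) with each sample left out. Among all genes, the count at an adjusted p under 0.05 was 0 in edgeR, 744 with DESeq2, 1173 with voom, 13 in the 4 samples and between 0 and 721 with each sample left out, the latter without sham replicate 2. At an unadjusted p under 0.05, 1222 were higher (2324 with voom, 621 with the replicate block, 548 to 2073 with each sample left out) and 1512 lower (2282 with voom, 907 with the replicate block, 858 to 2181 with each sample left out). Of these unadjusted counts with a sample left out, the lowest arose without PRATA replicate 1, the next without sham replicate 3 (593 higher and 878 lower) and the highest without sham replicate 2. Without the filter the median log2 fold change of all genes was -0.17 in place of 0.02. The cause was not tested. Sham replicate 2, with 5892967 counts, is the shallowest library and limits genes of low level most. Its neuron marker mean of 8.80 log2 CPM was also the highest of the sham samples and above PRATA replicate 2 at 8.72. The part of either in the counts without this sample was not tested.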
